A study of Mus musculus with 5 samples.

Results

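The genes of interest here encode enzymes that remove methyl groups from lysine 9 of histone H3 (H3K9). They are Kdm1a, Kdm3a, Kdm3b, Jmjd1c, Kdm4a, Kdm4b, Kdm4c and Kdm4d, 8 of the 21779 mouse protein-coding genes with usable coordinates. They were chosen by name, with earlier results of these data known. Every ZFP541 ChIP-seq peak that overlapped the gene body or the 10 kb on either side of it was taken. The study mapped where the zinc finger protein ZFP541 lies on chromatin in spermatocytes of late meiotic prophase (pachytene and diplotene), which were enriched from adult C57BL/6 testes by STA-PUT sedimentation. Peak lists of 3 libraries were used: 1 ChIP library from Zfp541-/- spermatocytes, and 2 ChIP libraries from wild-type spermatocytes (replicates 1 and 2), all made with the same rabbit antibody against ZFP541. The 2 wild-type input libraries were not analysed here. How the knockout allele was made, and whether the wild-type replicates came from separate animals, is not given in the sources used here. A peak list holds no RNA, so the labelled cell type could not be checked against its markers.

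Methylation of H3K9 marks silent chromatin, and the dimethylated and trimethylated forms are bound by readers such as the HP1 proteins. The demethylases fall into distinct families. KDM1A, also called LSD1, is an amine oxidase that works on mono- and dimethylated lysines, mostly at H3K4 within the CoREST complex and, in some settings, at H3K9. The KDM3 family (KDM3A, KDM3B and JMJD1C) and the KDM4 family (KDM4A to KDM4D) are Jumonji enzymes that need iron and oxoglutarate. KDM3 enzymes act on mono- and dimethylated H3K9, although the activity of JMJD1C is debated, and KDM4 enzymes act on di- and trimethylated H3K9. In mice KDM3A is required in spermatids, and KDM4D, a short family member without the PHD and Tudor domains of KDM4A to KDM4C, is most abundant in testis.

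ZFP541 peaks found in both wild-type replicates lay at 4 of the 8 genes: Kdm4b, Kdm1a, Jmjd1c and Kdm4c. At Kdm1a, Jmjd1c and Kdm4c a peak covered a listed transcription start in both replicates, and at Kdm4b it covered 1 end of the gene. Kdm3a, Kdm4a and Kdm4d had a peak in 1 replicate only, and Kdm3b had none. The knockout library had no peak at any of the 8. In numbers of peaks, the knockout list had 0 at these genes, replicate 1 had 9 at 5 genes and replicate 2 had 7 at 6 genes. Under the same window, 0.34% of all protein-coding genes had a knockout peak, 33.8% had a replicate 1 peak and 39.4% had a replicate 2 peak. With 0.34% as the background, no peak at 8 genes is what most sets of genes would show in the knockout list, and it says nothing particular about these genes. Peaks of both wild-type replicates that shared at least 1 bp were joined, those with a knockout peak were left out, and the 5325 that remained are called shared regions. A shared region lay in the window of 29.3% of protein-coding genes. Because these genes were picked with the peaks in view, and the knockout is 1 library, no test was run and the counts are a description. The 8 genes are also long, with a median of 57.3 kb against 17.2 kb for all protein-coding genes. Of the 4972 protein-coding genes within their range of lengths, 38.0 to 163 kb, 40.6% had a shared region in the window.

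**Figure D1:**
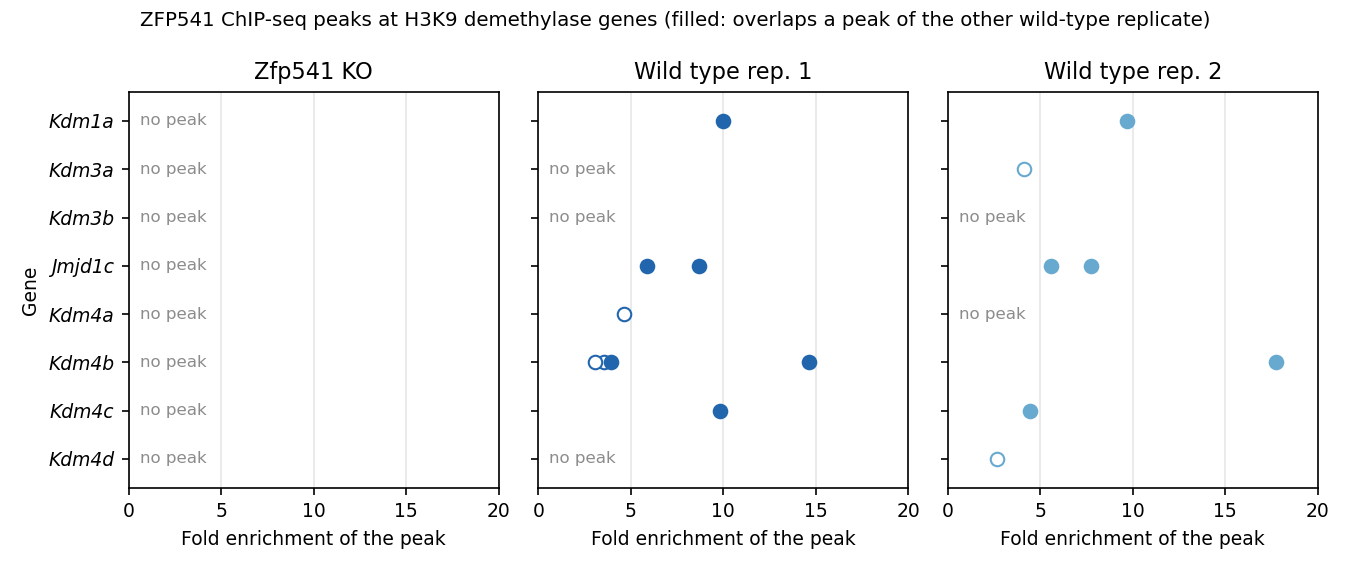
Fold enrichment (x axis, ratio over the peak caller's background) of every peak at the 8 genes (y axis), in the Zfp541 knockout library (left) and wild-type replicates 1 (middle) and 2 (right); each point is 1 peak, and filled points overlap a peak of the other wild-type replicate. The knockout panel holds no point, and the highest values in both wild-type panels, 14.6 and 17.8, belong to Kdm4b.

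The lists differ in length, which bears on each absence. The knockout list held 256 peaks, replicate 1 held 8236 and replicate 2 held 10371. The lowest −log10 p in them was 4.47, 2.71 and 2.54, in that order. Of the peaks at the 8 genes, 1 in replicate 1 and 1 in replicate 2 lay below the knockout list's lowest value. At Zfp541 itself the knockout had no peak within 10 kb of the gene, and the highest folds were 18.6 in replicate 1 and 22.2 in replicate 2. The lists do not give read depth, and a site without a peak is therefore not shown to be unbound. Fold enrichments, −log10 p and −log10 q are the values of the authors' peak caller, and they are used to describe and rank peaks within a list. Where folds of replicates 1 and 2 are set side by side, each is relative to the background of its own peak call, so a ratio between them describes the 2 lists and is not a measured difference in binding.

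Kdm1a, which encodes LSD1, had 1 peak in each wild-type replicate at its start. The knockout had no peak, replicate 1 had a fold of 10.0 (chr4:136602119-136602907, mm10) and replicate 2 a fold of 9.66 (chr4:136601080-136602991). The −log10 q was 20.6 in replicate 1 and 20.7 in replicate 2. Both peaks were among the higher ones of their own lists, within the top 7.87% of replicate 1 and the top 9.38% of replicate 2 by fold. The summits lay 40 and 61 bp downstream of the listed start at position 136602723 on the minus strand. The peak was 789 bp wide in replicate 1 and 1912 bp in replicate 2, where it reached further into the gene. The bases upstream of this start, outside the annotated gene, are shown from the RefSeq promoter table of GRCm38.p6 (the assembly behind mm10), 5′ to 3′ on the minus strand, chr4:136602788-136602973. Capitals mark CG dinucleotides in this and the other sequences, since promoters under shared regions are rich in them.
Kdm1a start: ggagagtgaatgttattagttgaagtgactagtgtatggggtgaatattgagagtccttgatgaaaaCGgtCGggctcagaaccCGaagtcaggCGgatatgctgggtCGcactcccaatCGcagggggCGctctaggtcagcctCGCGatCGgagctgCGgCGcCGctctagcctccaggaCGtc

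The KDM3 family differed among its members. Kdm3a, on the minus strand of chromosome 6 (71588970 to 71632990), had no peak in the knockout, no peak in replicate 1 and 1 peak with a fold of 4.11 in replicate 2 (chr6:71632615-71633431). Its −log10 q was 3.24, and its summit lay 371 bp upstream of the outermost listed start. That fold was exceeded or equalled by 44.8% of the replicate 2 peaks, so this was an ordinary peak of its list.

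Jmjd1c, the longest KDM3 family gene at 160 kb, had a pair of shared regions. The first covered the listed start at position 67127088 of chromosome 10, plus strand, which lies inside the annotated gene (67096351 to 67256326). There the knockout had no peak, replicate 1 had a fold of 8.67 (chr10:67126293-67127649) and replicate 2 a fold of 5.59 (chr10:67125973-67127745). The summits were 529 bp apart, 160 bp downstream of the start in replicate 1 and 369 bp upstream in replicate 2, and 95.8% of all shared regions had summits as close or closer. The second region lay at the lower-coordinate gene end, which is the upstream end of this plus-strand gene. Its summits lay 179 and 218 bp inside that end, and 30.6 and 30.5 kb upstream of the listed start. There the knockout had no peak, replicate 1 had a fold of 5.86 (chr10:67095831-67097442) and replicate 2 a fold of 7.72 (chr10:67096230-67097288). These summits were 39 bp apart and lay inside the annotated spans of both Jmjd1c and its neighbour Reep3, so the peak cannot be assigned to either gene. Replicate 1 was higher at the start and replicate 2 at the shared gene ends. A further listed start at position 67185750 had no peak in any library. The 250 bases upstream of each start show the contrast within 1 gene; the first stretch is chr10:67126838-67127087 and the second chr10:67185500-67185749, both on the plus strand.
Jmjd1c start with a shared region: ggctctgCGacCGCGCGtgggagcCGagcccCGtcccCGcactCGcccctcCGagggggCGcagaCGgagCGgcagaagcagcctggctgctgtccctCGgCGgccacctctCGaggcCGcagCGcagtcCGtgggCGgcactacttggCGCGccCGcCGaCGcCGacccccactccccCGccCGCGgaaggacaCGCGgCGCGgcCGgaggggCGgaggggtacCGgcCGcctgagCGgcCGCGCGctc
Jmjd1c start without a peak: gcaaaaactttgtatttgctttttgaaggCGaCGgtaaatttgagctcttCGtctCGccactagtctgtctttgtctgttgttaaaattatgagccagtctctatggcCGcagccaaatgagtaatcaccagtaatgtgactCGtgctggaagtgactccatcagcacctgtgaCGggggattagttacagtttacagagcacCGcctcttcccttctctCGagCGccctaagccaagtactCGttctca
The first stretch holds 40 CG dinucleotides and the second 11.

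Within the KDM4 family, Kdm4b had the highest peaks of all 8 genes in both replicates. The knockout had no peak, the main peak of replicate 1 had a fold of 14.6 (chr17:56325696-56326762) and that of replicate 2 a fold of 17.8 (chr17:56325535-56327776). By fold these were within the top 1.51% of replicate 1 peaks and the top 0.694% of replicate 2 peaks. The summits were 15 bp apart, 218 and 233 bp inside the lower-coordinate end of the gene, which spans 56325970 to 56403774 on chromosome 17. Replicate 1 had 3 smaller peaks around the main one, with folds of 3.57, 3.08 and 3.93, of which the first lay with its summit inside the neighbouring gene Uhrf1 and the last overlapped the wide replicate 2 peak by 24 bp. The second of them had a −log10 q of 1.01, a q-value of 0.0973. The joined region was 2563 bp wide, against a median of 1061 bp over all shared regions. Ranked by the mean percentile of fold over both lists, it was number 54 of the 5325 shared regions.

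Kdm4c (chromosome 4, 74242497 to 74405864, plus strand) had its peaks at the second of its listed starts, 9.4 kb inside the gene. The knockout had no peak, replicate 1 had a fold of 9.80 (chr4:74251732-74252380) and replicate 2 a fold of 4.47 (chr4:74251624-74252755). The summits were 12 and 53 bp downstream of the start at position 74251879. The summit positions differed by 41 bp, but the fold in replicate 1 was 2.19 times that in replicate 2. On the log2 scale this ratio was 1.13, and 99.5% of all shared regions had the same or a lower ratio. The outermost start, at position 74242497, had no peak in any library. The 250 bases upstream of the outer start (chr4:74242247-74242496) and of the inner start (chr4:74251629-74251878), both on the plus strand, differ in composition.
Kdm4c outer start without a peak: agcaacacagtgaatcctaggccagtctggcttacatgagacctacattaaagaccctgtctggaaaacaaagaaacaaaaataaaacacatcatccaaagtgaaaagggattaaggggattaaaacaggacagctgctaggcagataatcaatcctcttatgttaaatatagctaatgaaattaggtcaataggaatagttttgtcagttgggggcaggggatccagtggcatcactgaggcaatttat
Kdm4c inner start with a shared region: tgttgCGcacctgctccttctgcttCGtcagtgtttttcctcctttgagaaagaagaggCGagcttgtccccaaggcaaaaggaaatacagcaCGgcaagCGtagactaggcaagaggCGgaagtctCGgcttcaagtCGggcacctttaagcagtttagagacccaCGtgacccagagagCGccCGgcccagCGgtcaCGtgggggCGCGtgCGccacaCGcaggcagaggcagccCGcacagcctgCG
The outer stretch holds 0 CG dinucleotides and the inner one 19.

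Kdm4a and Kdm4d had no peak at a listed start. At Kdm4a (chromosome 4, 118136957 to 118180090, minus strand) the knockout and replicate 2 had no peak, and replicate 1 had 1 peak with a fold of 4.64 (chr4:118134437-118134709). Its summit lay 2367 bp beyond the lower-coordinate end of Kdm4a, within the neighbouring gene St3gal3 and far from the Kdm4a start. The stretch upstream of the Kdm4a start, outside the annotated gene (chr4:118180091-118180293, minus strand), is shown as an example of a member's start without a peak.
Kdm4a start without a peak: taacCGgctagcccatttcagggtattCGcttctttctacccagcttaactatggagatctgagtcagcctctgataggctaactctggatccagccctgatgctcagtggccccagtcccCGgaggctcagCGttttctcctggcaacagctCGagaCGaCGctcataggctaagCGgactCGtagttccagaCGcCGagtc
At Kdm4d (chromosome 9, 14462548 to 14500522, minus strand) the knockout and replicate 1 had no peak, and replicate 2 had a peak inside the gene with a fold of 2.69 (chr9:14466595-14466791), 33.8 kb downstream of the start. Its q-value was 0.485, and 90.5% of the replicate 2 peaks had the same or a higher fold. On the side of the Kdm4d start, the annotated spans of Kdm4d and Cwc15 lie 82 bp apart, and no library had a peak there.

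Kdm3b, the remaining KDM3 family gene (chromosome 18, 34777008 to 34839370), had no peak within 10 kb in any library. The nearest peaks outside that window lay 20.7 kb away with a fold of 10.2 in replicate 1 and 20.3 kb away with a fold of 13.1 in replicate 2, and these were the closest peaks outside the window at any of the 8 genes in either replicate. The nearest knockout peak on that chromosome was 5469 kb away. The next closest were at Kdm4b, 21.2 kb away with a fold of 6.43 in replicate 1 and 21.1 kb away with a fold of 6.74 in replicate 2. Within the window, the peak farthest outside its gene was the one whose summit lay 2653 bp from Kdm4b, at Uhrf1.

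**Figure D2:**
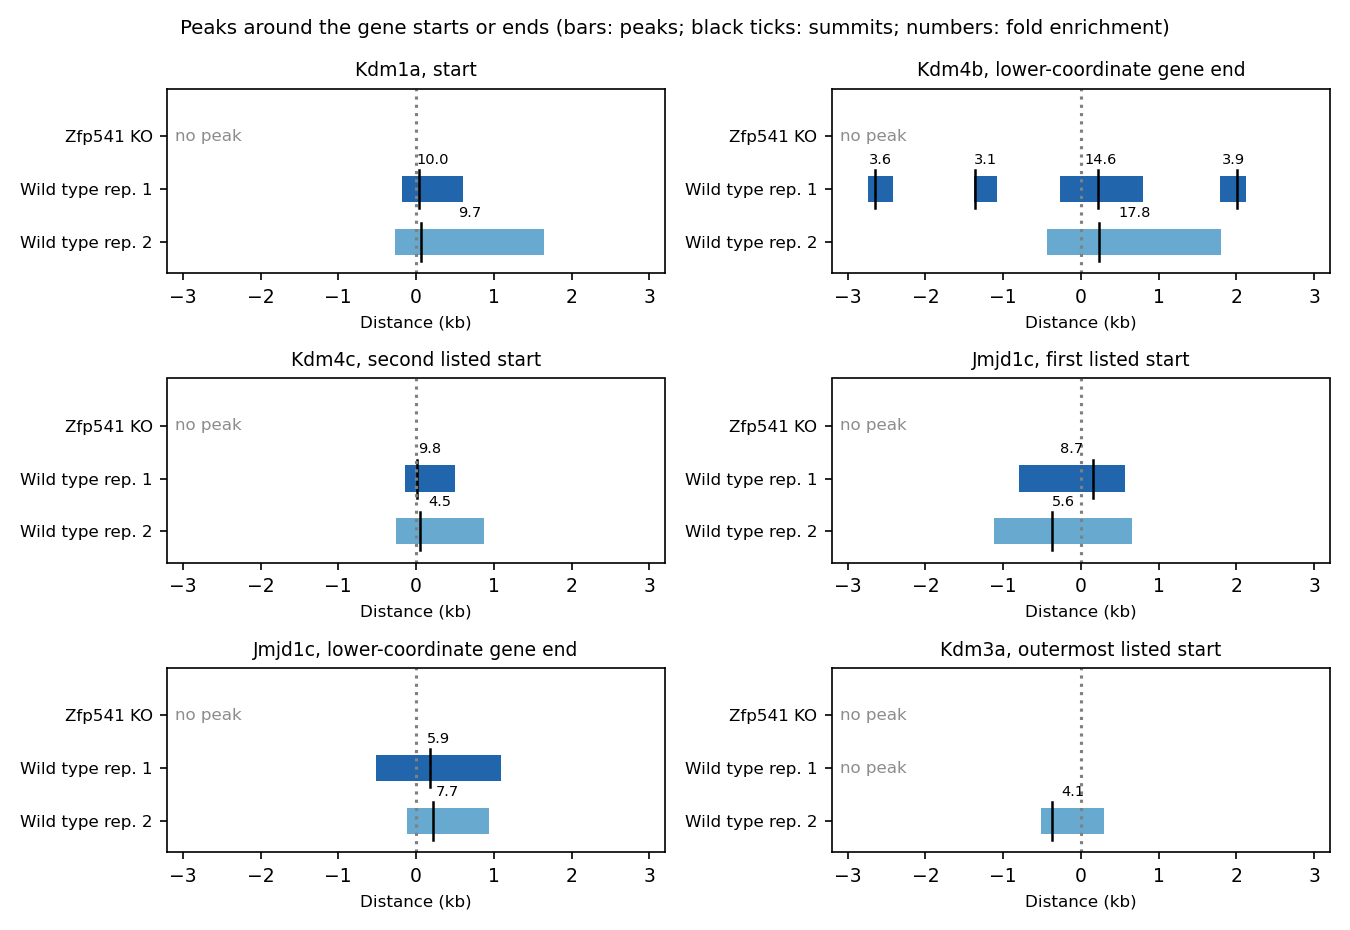
Peaks in the knockout library (top row of each panel) and wild-type replicates 1 and 2 (below), as bars along the distance in kb from the start or gene end named above the panel (0, dotted line); Kdm1a and Kdm3a run in the direction of transcription and the other panels in the direction of increasing coordinate. Summits (black ticks) lay within 61 bp of the start at Kdm1a and Kdm4c in both replicates, and at the Jmjd1c start they were 529 bp apart.

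The order of the genes, with 1 region per gene, can be read only as far as the replicates allow. Kdm4b was first in both, at 14.6 and 17.8, and Kdm1a second in both, at 10.0 and 9.66. The gap between Kdm4b and Kdm1a was 0.55 in replicate 1 and 0.88 in replicate 2 on the log2 fold scale. Across all shared regions, the log2 ratio of replicate 1 to replicate 2 had an SD of 0.47 around a median of -0.10, so both gaps exceeded that SD. The 5th and 95th percentiles of that ratio were -0.90 and 0.65, so differences between replicates at single regions reached the size of both gaps. At its listed start Jmjd1c had 8.67 and 5.59, and its gap to Kdm1a was 0.21 in replicate 1, below that SD, and 0.79 in replicate 2, above it. Its region shared with Reep3, at 5.86 and 7.72, was left out of this order. Kdm4c, at 9.80 and 4.47, was above the Jmjd1c start in replicate 1 and below it in replicate 2, so these 2 genes could not be ordered. In replicate 1 Kdm4c was also close to Kdm1a, at 9.80 against 10.0, so the second place of Kdm1a was narrow there. The 5 regions at these genes had a median fold of 9.80 in replicate 1 and 7.72 in replicate 2, against 5.36 and 6.04 over all shared regions. These 5 include both Jmjd1c regions, and the replicate 2 median is the value of the region shared with Reep3. The genes were picked with the peaks in view, so the medians are a description only. The peak was wider in replicate 2 at 4 of the 5 regions, which is also the commoner direction, found at 72.2% of all shared regions. The gene whose folds at a start or end came nearest to those of Kdm4b, by distance over the log2 folds of both replicates among 4663 genes, was Dicer1 (14.1 and 17.5). Lbr (14.2 and 17.2) and Ssbp3 (15.4 and 17.8) came next.

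**Figure D3:**
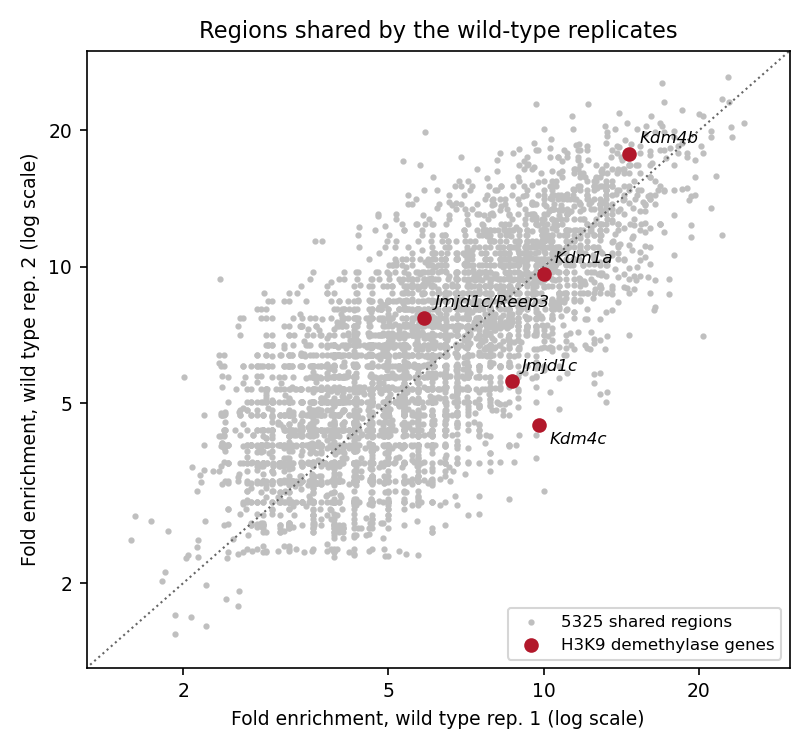
Fold enrichment of each shared region in wild-type replicate 1 (x axis) and replicate 2 (y axis), both on log scales; grey points are all 5325 shared regions, red points the 5 at H3K9 demethylase genes, and the dotted line marks equal values. Kdm4b lies near the upper end (14.6 and 17.8), Kdm1a near the line (10.0 and 9.66) and Kdm4c far to the right of it (9.80 and 4.47).

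A shared region within 1 kb of a listed start, or of either gene end where no start was listed, was found for 4 of the 8 genes, against 21.4% of all protein-coding genes, 33.6% of those within the same range of lengths and 11.4% of annotated genes of any type. Starts were listed for 6 of the 8 genes, 10 starts in all, and Kdm3b and Kdm4b were judged by their ends. When only gene ends were used for every gene, 3 of the 8 counted, against 21% of protein-coding genes, since the Kdm4c region lies at an inner start. Jmjd1c then counted only through the region shared with Reep3, which cannot be assigned to either gene. When the peaks of the replicates had to share at least 50% of both widths, 2 of the 8 counted, Jmjd1c and Kdm4c, against 15.4% of protein-coding genes at a start or end and 22% in the wider window. The promoters, 250 bases before to 50 after each listed start, differed in their content of CG dinucleotides. The 3 starts with a shared region had 47 (Jmjd1c), 29 (Kdm1a) and 28 (Kdm4c) CG dinucleotides in 300 bases. Of the 7 starts without one, the middle and the outermost start of Kdm3a, which share bases and lie under the peak found in replicate 2 alone, had 40 and 24. Kdm4d had 17, Kdm4a and the second Jmjd1c start had 13 each, and the outer Kdm4c start and the innermost Kdm3a start had 0. Over the whole table the median was 30 for the 4701 promoters with a shared region and 5 for the 28150 without.

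**Figure D4:**
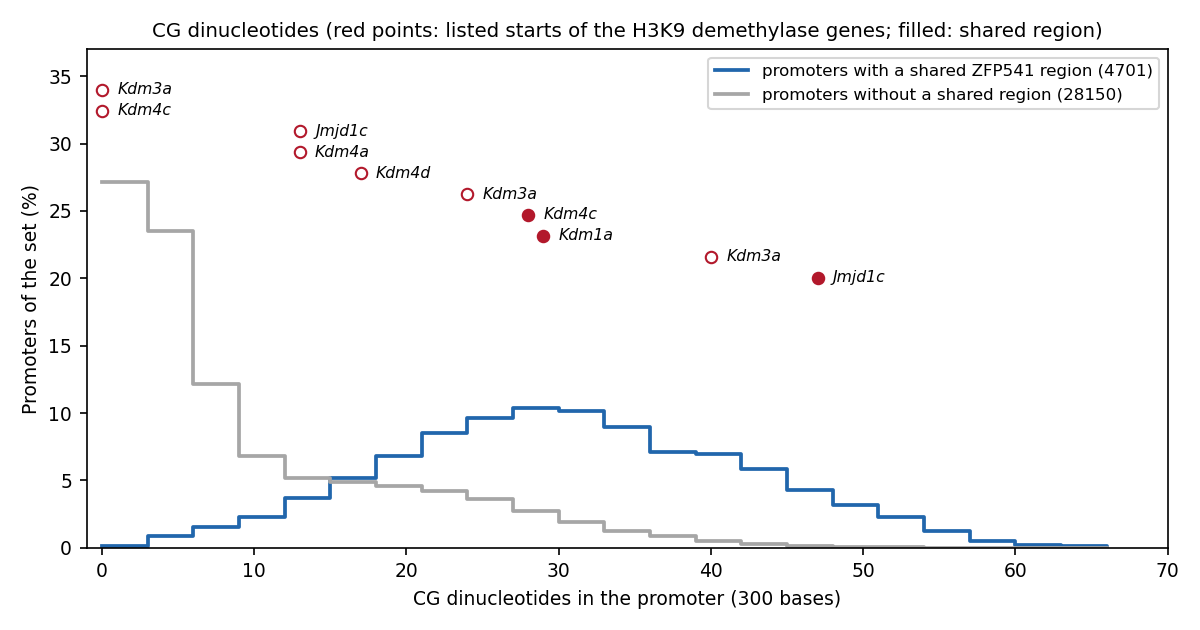
Share of promoters (y axis, % of each set) by the number of CG dinucleotides in 300 bases around the listed start (x axis, bins of 3), for 4701 promoters with a shared region (blue) and 28150 without (grey); red points mark the 10 listed starts of the H3K9 demethylase genes at their CG number, at arbitrary heights, filled where a shared region overlaps. The filled points lie at 28, 29 and 47, and of the open points only the Kdm3a starts at 24 and 40 come near or above them.

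Short sequence elements were searched on both strands of the same windows. GGGCGG, the GC box, occurred in 5 of the 10 promoters of these genes, among them the Jmjd1c start and the inner Kdm4c start with a shared region but not the Kdm1a start. It occurred in 35.7% of all promoters and in 77.9% of those with a shared region. CACGTG, the E-box, occurred in 1 of the 10, the inner Kdm4c start, where it is found 2 times; it occurred in 7.15% of all promoters and 12.5% of those with a shared region. CCAAT occurred in 4 of the 10, in 37.4% of all promoters and in 33.7% of those with a shared region. TGACGT occurred in 1 of the 10, at Kdm4d, and in 7.51% of all promoters and 12.2% of those with a shared region. TATAAA occurred in 0 of the 10, in 13.6% of all promoters and in 4.53% of those with a shared region. The GC box, the E-box and TGACGT each contain a CG dinucleotide, so their counts are not independent of the CG content, and no pair of these elements was required to be free of overlap.

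Related genes were counted by the same rule, a shared region within 1 kb of a start or end, beside the 21.4% of all protein-coding genes. Of 4 other H3K9 demethylase genes, 2 had one: Phf2, with folds of 13.2 and 9.54 in replicates 1 and 2, and Kdm7a, with 7.71 and 14.1, both encoding Jumonji enzymes with a PHD finger; Phf8 and Hr had none. All 7 H3K9 methyltransferase genes had one, led by Ehmt2 (5.90 and 19.8), which encodes G9a, Suv39h2 (5.67 and 12.4) and Setdb2 (7.09 and 5.15); at a minimum −log10 q of 5 this count was 4 of 7, against 12.1% of all protein-coding genes, and at 10 it was 2 of 7, against 6.87%. Of 10 genes for partners of LSD1 in CoREST complexes, 7 had one, among them Gse1 (10.8 and 14.4) and Zmym2 (10.8 and 7.79). Of the 3 genes for HP1 proteins, which bind methylated H3K9, 2 had one, Cbx3 (5.36 and 8.39) and Cbx1 (4.63 and 6.71). Of 10 demethylase genes for other histone H3 lysines, 3 had one: Kdm2b (14.7 and 18.6), Kdm2a (4.64 and 4.03) and Kdm5b (2.83 and 4.03). With a minimum −log10 q of 10, 3 of the 10 CoREST partner genes, 0 of the 3 HP1 genes and 1 of the 10 genes for other lysines had one. The knockout had no peak in the window of any gene of these 5 lists. Only 0.34% of all protein-coding genes had one, so this absence says nothing particular about these lists. Kdm2b was thus close to Kdm4b in fold in both replicates, and no difference between the lists was tested.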

How the data were processed

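ZFP541 ChIP-seq peak lists of 1 knockout and 2 wild-type libraries were used as deposited, 1 list per library. The tools named, per the submitters' processing notes, are MACS2 2.2.6, Bowtie2 2.3.5, cutadapt 2.6, deepTools 3.5.0, Picard and SAMtools 1.10, with build mm10. No source used here states their settings, the peak threshold or which library served as control. The deposited columns hold, by the authors, a fold enrichment (ratio), −log10 p and −log10 q, the summit offset, and a score equal to the −log10 q times 10 without decimals. Peaks with a q-value above 0.05 made up 11.3% of the knockout list and 19.2% and 22.6% of the wild-type lists. Read depth is unknown, so no interval is given.

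Gene spans, listed starts and promoter sequences came from RefSeq tables of GRCm38.p6; entries before 3 Mb of autosomes and X, which carry scaffold coordinates, were left out. Coordinates are 1-based. A percentile of fold is within a peak's own list. The genes and lists were chosen with earlier results of these data known. Named were all 8 genes, up to 3 genes per related list by mean percentile of fold, and the 3 nearest to the gene with the highest; 1 gene this rule names is not reported here. Alternatives covered the q threshold, the windows, the overlap of the replicates, knockout peaks, single replicates and the background genes. The overlap and window steps were checked on simulated data, where they found the peaks planted at known positions. Genes called wrongly were not counted in that check. Python 3.11.15, numpy 2.4.6, pandas 2.3.3 and matplotlib 3.10.9 were used.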

Additional observations from a re-analysis of the deposited data

How the results depend on the processing

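The 4 genes with a shared region, Kdm1a, Jmjd1c, Kdm4b and Kdm4c, were the same 4 at minimum −log10 q values of 1.3 and 5, with the gene body alone, 5 kb or 20 kb of flank, and with start windows of 500 bp or 2 kb. The share of all protein-coding genes in the window was 26.6% and 17.3% at those q values and 22.8%, 26.4% and 34.6% for those flanks, and at a start or end it was 20.9% and 22.0%. With a minimum of 10, Kdm4c was lost, and the share in the window was 10.0%. Under a reciprocal overlap of at least 50%, 2 of the 8 remained, Jmjd1c and Kdm4c, both in the window and at a start, because the replicate 1 peaks of Kdm1a and Kdm4b covered 41.3% and 47.6% of the wider replicate 2 peaks. With 1 wild-type replicate alone, 5 to 6 genes had a peak in the window, against 33.8% to 39.3% of all protein-coding genes, and 4 to 5 at a start or end, against 24.2% to 28.3%; Kdm3a gained one at its start without replicate 1. Peaks at the 8 genes numbered 5 in replicate 1 with a minimum of 5, and 4 in each replicate with 10, where 3 genes had a replicate 2 peak. Among related lists, where the share of all protein-coding genes at a start or end was 12.1% with a minimum of 5, 6.87% with 10 and 15.4% under reciprocal overlap, H3K9 methyltransferases had 4 at 5 and 2 at 10, demethylases of other lysines 1 at both and 1 under reciprocal overlap, HP1 readers 1 at 5 and 0 at 10, and LSD1-CoREST partners 3 at 10. In total, 90 counts under these alternatives, some of them given above, stayed within 1.5 times of the reported ones. Part of these could not move, so the number 90 is no measure of stability. Knockout counts of 0 could not fall under stricter settings, and a change of background genes left the member counts as they were. Keeping regions with a knockout peak also changed nothing, since no gene of the lists had a knockout peak in its window. Counting only gene ends, and the background of genes of similar length, were chosen after seeing the data. Against all 49603 annotated genes of any type, the background at a start or end was 11.4%. No paired analysis was possible because the knockout is 1 library and no test was run. With 1 knockout list of 256 peaks and unknown depth, weak binding in the knockout was not measurable. Read depth is also unknown for the wild-type lists, so wild-type binding too weak to give a peak was not measurable either.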
